A study of Mus musculus with 12 samples.

Results

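The Notch pathway genes described here are 10 named genes: the receptors Notch1, Notch2 and Notch3, the DNA-binding partner Rbpj, and the direct targets Hes1, Dtx1, Nrarp, Hey1, Heyl and Myc. They were chosen by name, and 9 of the 10 had a row among the 13016 genes of the table; Heyl was not analysed here. Messenger RNA was measured in 12 libraries, each made from 100 sorted mouse early thymic progenitors, the first T-lineage cells of the thymus, on the C57BL/6 strain. All 12 carried homozygous floxed alleles of Ezh2, the methyltransferase of Polycomb repressive complex, and of Runx1, which encodes a blood cell transcription factor. On those alleles (Ezh2 fl/fl and Runx1 fl/fl), the dKO_Flt3ITD group had the recombinase Rag1Cre+ and the genotype Flt3 ITD/+, an internal tandem duplication in a cytokine receptor gene. The dKO group had Rag1Cre+ with no Flt3 allele listed, and the control group had the floxed alleles with neither. Each group had 4 libraries. The recombinase acts where Rag1 is or has been active, so the deleted share of the sorted cells is set by that gene's expression. The labels give no ages and do not say that libraries of a group come from different mice, so each p-value rests on a spread between libraries that may be technical.

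A Notch receptor is cleaved when a ligand on a neighbouring cell engages it, and its intracellular part enters the nucleus, where it joins Rbpj and a Mastermind coactivator on target genes. In the thymus this signal, from Notch1 and the stromal ligand Dll4, is required for early progenitors to take the T-cell fate. Hes1 and Hey1 encode helix-loop-helix repressors, Nrarp encodes an ankyrin-repeat protein that binds the intracellular receptor and limits its output, Dtx1 encodes a Deltex ubiquitin ligase, and Myc encodes a transcription factor of growth.

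Levels are given in RPKM, a read count per length of transcript and depth of library. A test of a gene was made on log2(RPKM + 1) with limma over 10690 genes that reached 1 RPKM in 4 or more of the 12 libraries, and a gene was called at a Benjamini-Hochberg adjusted p under 0.05. Of the 9 genes in the table, 7 passed that filter, and Notch3 and Hey1 did not. Recovered reads per library were 13623436 to 33985972. The mean correlation of control 1 with the rest was the lowest, 0.786, and the library dKO_Flt3ITD 1 had the highest summed RPKM of the 12. RPKM of the deleted genes, counted over the whole gene and so no check of the deletion, averaged 16.4 ± 5.59 RPKM in dKO_Flt3ITD, 22.6 ± 5.87 RPKM in dKO, 39.8 ± 5.83 RPKM in control for Ezh2 and 47.5 ± 11.8 RPKM in dKO_Flt3ITD, 46.4 ± 11.1 RPKM in dKO, 21.2 ± 4.57 RPKM in control for Runx1 (SD, n = 4). The label of the cells was checked against 10 early thymic progenitor markers, among them Kit, Cd44 and Flt3, and 9 or 10 of them reached 1 RPKM in every library. Their summed level was 472 to 715 RPKM in dKO_Flt3ITD, 553 to 684 RPKM in dKO and 814 to 1077 RPKM in control. Of other cell types, the erythroid list had 0 of 4 markers in the table, and the thymic stroma list had 2 of 6, Psmb11 and Pecam1, at a summed 11.1 to 28.0 RPKM in dKO_Flt3ITD, 14.2 to 28.9 RPKM in dKO and 15.8 to 34.6 RPKM in control. Later thymocyte markers were 8 of 8 in the table. They summed to 6.13 to 62.0 RPKM in dKO_Flt3ITD, 72.2 to 179 RPKM in dKO and 6.18 to 54.7 RPKM in control. The sums did not overlap between dKO and control, and Cd8b1 was under 1 RPKM in every library. Rag2, the largest part in dKO, averaged 84.2 RPKM there and 12.4 RPKM in control, also without overlap. Cd4, Cd5, Rag1 and Trat1 had higher means in dKO than in control but overlapped. Means of Cd8a and Cd3g were lower in dKO (0.454 and 0.0131 RPKM) than in control (1.15 and 2.47 RPKM). B-lineage markers, 3 of 8 in the table and nearly all Cd79b, summed to 55.5 to 105 RPKM in dKO_Flt3ITD, 87.8 to 151 RPKM in dKO and 58.3 to 98.2 RPKM in control. Natural killer and innate lymphoid markers, 2 of 5 in the table and nearly all Nkg7, summed to 224 to 1441 RPKM in dKO_Flt3ITD, 559 to 1841 RPKM in dKO and 780 to 1627 RPKM in control. Of 7 tested myeloid and dendritic markers, limma called the macrophage gene Emr1 higher in dKO_Flt3ITD against control (log2 fold change 3.50, adjusted p = 0.0481), a call lost without dKO_Flt3ITD 4 (2.85, adjusted p = 0.102). Without that library it called the granule gene Mpo lower instead (−2.81, adjusted p = 0.0418, against −1.50 and 0.542 with it).

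One library stood apart for these genes and is described before the comparisons. In dKO_Flt3ITD 4 Notch1 had 2.10 RPKM, against 21.3 to 40.5 RPKM in the 11 others. Hes1 had 6.87 RPKM there, against 32.4 to 125 RPKM in the others. These were among only 17 of 10690 tested genes (0.159%) that lay at least 1.5 log2 units below every other library in dKO_Flt3ITD 4, a limit set after the values were seen. Nrarp was the third gene of the 7 tested to have its lowest value in that library, at 0.0160 RPKM or 1 read, while 6.02% of all tested genes had their lowest value there. Rbpj and Notch2 lay inside the range of the others, at 10.7 and 30.7 RPKM, and Myc, at 126 RPKM, was exceeded only by control 2 and control 4.

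Other genes of that library are given as values, chosen after they were seen. Rag2, a recombinase subunit of antigen receptor genes, had 0.0121 RPKM in dKO_Flt3ITD 4, against 3.64 to 129 RPKM in the 11 others. Gata3, a transcription factor of T-cell specification, had 7.10 RPKM, against 15.5 to 53.0 RPKM. Mpo, a granule enzyme of the neutrophil lineage, had 721 RPKM, against 7.71 to 230 RPKM. Elane, the neutrophil elastase gene, had 105 RPKM, against 0 to 8.78 RPKM. The 10 myeloid and dendritic markers in the table (of 12 listed) summed to 981 RPKM, against 90.4 to 455 RPKM, but the 8 without Mpo and Elane summed to 154 RPKM, inside the 82.6 to 390.1 RPKM of the others. Csf1r, a macrophage receptor gene, had 10.2 RPKM, inside the 4.54 to 40.2 RPKM of the 11 others. It was below the 15.5 to 31.1 RPKM of dKO_Flt3ITD 1 to 3. Itgam, an integrin gene of myeloid cells, had 0.528 RPKM, inside the 0.144 to 5.64 RPKM of the 11 others. That was below the 0.737 to 2.10 RPKM of dKO_Flt3ITD 1 to 3. Emr1 was highest of all libraries in dKO_Flt3ITD 4, at 43.4 RPKM. Siglech, a plasmacytoid dendritic cell marker, was at most 0.246 RPKM in any library. The 10 early thymic progenitor markers were all at 1 RPKM or more in dKO_Flt3ITD 4 and summed to 715 RPKM, inside the 472 to 1077 RPKM of the others. In bulk samples fewer cells of a type and less RNA per cell cannot be told apart, and the part these markers have in the low Notch values was not tested. Test results of the Notch genes that this library moves are given with and without it.

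**Figure D1:**
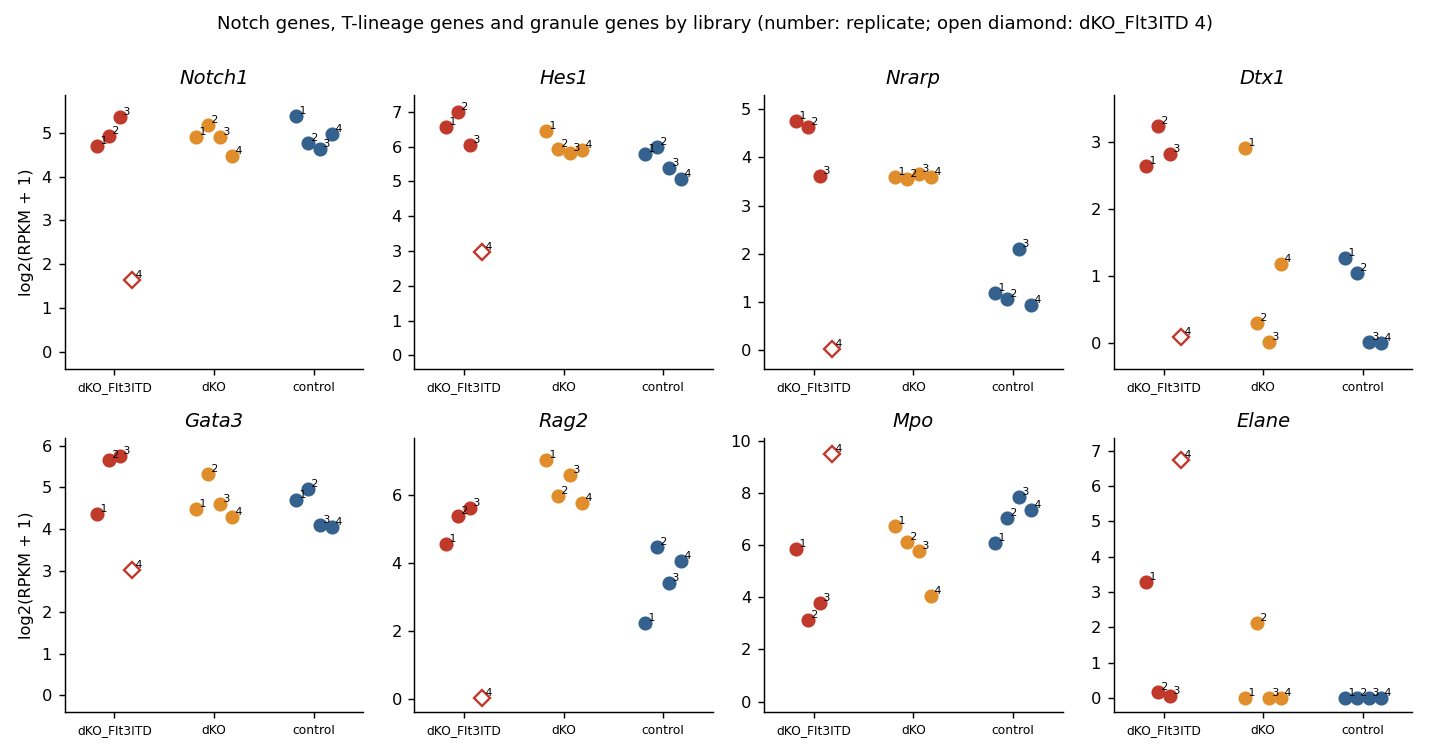
Log2(RPKM + 1) of 4 Notch pathway genes (top row) and of Gata3, Rag2, Mpo and Elane (bottom row) in each library, with the replicate number beside each point and dKO_Flt3ITD 4 as an open diamond. Notch1 and Hes1 are far lower in dKO_Flt3ITD 4 (2.10 and 6.87 RPKM) than in any other library, and Mpo and Elane are highest there (721 and 105 RPKM).

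Promoters, 250 bases before to 50 bases after the start of transcription in RefSeq (GRCm38.p6, the assembly of mm10), are shown for 3 genes. Nrarp is the target gene without overlap between dKO and control, Jag1 is the ligand gene that was called below, and Rbpj is the only gene of the set whose window held the Rbpj core TGGGAA. Capitals mark that core or its reverse complement.
Nrarp, chr2:25180508-25180807, plus strand: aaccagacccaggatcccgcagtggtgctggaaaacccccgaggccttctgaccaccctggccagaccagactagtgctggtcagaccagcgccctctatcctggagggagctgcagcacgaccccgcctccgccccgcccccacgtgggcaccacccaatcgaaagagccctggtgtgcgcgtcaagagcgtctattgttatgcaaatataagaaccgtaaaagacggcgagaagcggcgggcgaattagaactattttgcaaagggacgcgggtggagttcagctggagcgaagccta
Jag1, chr2:137116471-137116770, minus strand: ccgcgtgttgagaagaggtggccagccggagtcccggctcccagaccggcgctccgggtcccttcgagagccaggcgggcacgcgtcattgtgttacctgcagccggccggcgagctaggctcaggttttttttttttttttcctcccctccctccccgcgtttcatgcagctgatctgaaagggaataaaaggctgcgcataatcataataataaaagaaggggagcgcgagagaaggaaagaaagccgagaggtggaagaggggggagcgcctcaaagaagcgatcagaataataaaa
Rbpj, chr5:53590096-53590395, plus strand: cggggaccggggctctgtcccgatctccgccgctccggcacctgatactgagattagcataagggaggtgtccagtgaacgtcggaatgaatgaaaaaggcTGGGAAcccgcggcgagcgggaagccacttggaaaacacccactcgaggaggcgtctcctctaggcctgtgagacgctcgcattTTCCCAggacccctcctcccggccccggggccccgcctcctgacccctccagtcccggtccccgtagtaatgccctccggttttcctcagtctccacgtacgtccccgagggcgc
The core was searched on both strands. In the Rbpj window it stood on the plus strand at bases 102 to 107 and on the minus strand at bases 186 to 191, counted from 1 at the 5′ end of the window. RefSeq windows were found for 6 of the 10 genes, and not for Hes1, Hey1, Heyl and Myc. There were 7 windows in all because Rbpj has a second start, and the core was in 2 of the 7, both of Rbpj. Those windows overlap, and the match in the second is the minus-strand match of the first, so the same gene and site are counted in both. Over 32851 mouse promoter windows of the same length 25.6% held the core. The longer form GTGGGAA was in 0 of the 7 windows, against 6.38% of all windows. The RUNX core TGTGGT, searched on both strands as well, was in 0 of the 7 windows, against 16.8% of all windows. A match is a run of letters, not a bound site, and no match says only that the letters are not in this window.

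The 9 genes covered a wide range of levels. In control the order by mean RPKM, a level per length, was Myc at 113 ± 40.2, Hes1 at 47.4 ± 13.5, Notch1 at 30.1 ± 7.43, Notch2 at 26.0 ± 4.58, Rbpj at 13.7 ± 5.61, Nrarp at 1.65 ± 1.12, Dtx1 at 0.616 ± 0.719 and Notch3 at 0.0738 ± 0.133 RPKM (SD, n = 4), with Hey1 at 0 reads in all 4 libraries. The lowest Myc value in control lay above the highest Hes1 value, and the lowest Notch2 value above the highest Rbpj value. Values of Hes1 and Notch1, of Notch1 and Notch2, of Nrarp and Dtx1 and of Dtx1 and Notch3 overlapped between neighbours in that order. In dKO Hes1 averaged 65.1 ± 14.4 RPKM and Myc 62.2 ± 20.6 RPKM, overlapping levels, and Nrarp stood at 11.1 ± 0.379 RPKM. In dKO_Flt3ITD Myc averaged 77.9 ± 42.6 RPKM, Hes1 72.4 ± 50.2 RPKM and Nrarp 15.3 ± 12.1 RPKM (SD, n = 4 in each group).

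**Figure D2:**
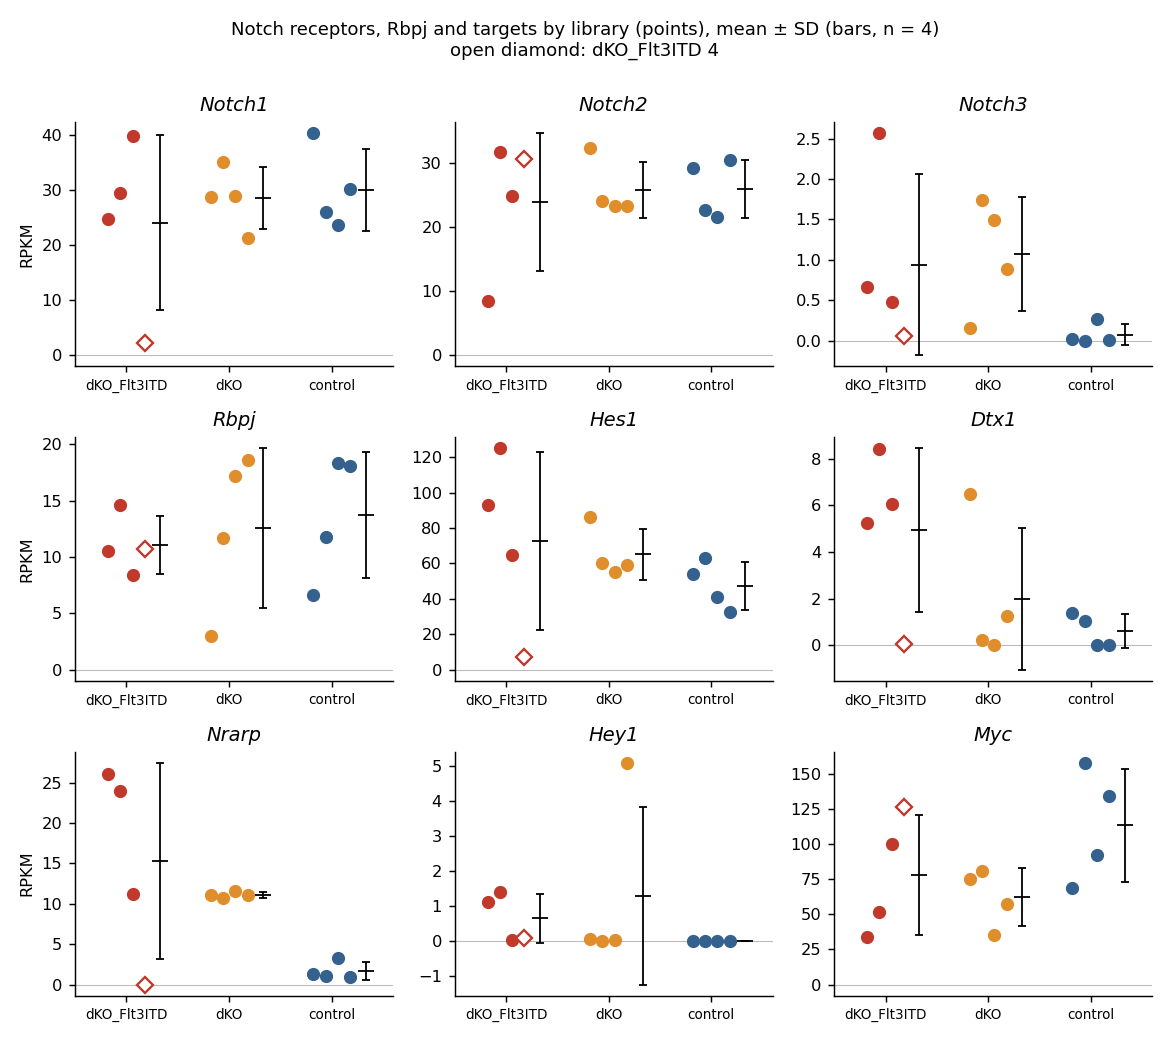
RPKM of the 9 genes in each library (points), with the mean and SD of the 4 libraries of each group (bars) and dKO_Flt3ITD 4 as an open diamond. Nrarp lies at 10.7 to 11.6 RPKM in the 4 dKO libraries and at 0.901 to 3.32 RPKM in the 4 controls, while Notch1 and Notch2 overlap between groups.

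Notch1 and Notch2 overlapped between the 3 genotypes and were not called, while Notch3 was low in all and lowest in control. Notch1 (chromosome 2, 26457903 to 26516663, minus strand, GRCm38; ENSMUSG00000026923.15) is the receptor of T-lineage commitment. It had 24.8, 29.6, 39.9 and 2.10 RPKM in dKO_Flt3ITD 1 to 4, 28.8, 35.2, 28.9 and 21.3 RPKM in dKO 1 to 4, and 40.5, 26.1, 23.6 and 30.2 RPKM in control 1 to 4. The groups overlapped, and the only low value was that of dKO_Flt3ITD 4. For dKO against control the log2 fold change was −0.06 with a 95% interval of −1.34 to 1.21 and a limma adjusted p of 0.991. For dKO_Flt3ITD against control it was −0.78 (−2.05 to 0.50, adjusted p = 0.629), and 0.06 (−0.71 to 0.84, adjusted p = 0.966) without dKO_Flt3ITD 4, so its direction came from that library.

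Notch2 (chromosome 3, 98013527 to 98150361, plus strand) encodes a receptor of marginal zone B cells and other blood lineages. It had 8.35, 31.7, 24.8 and 30.7 RPKM in dKO_Flt3ITD 1 to 4, 32.4, 24.1, 23.3 and 23.3 RPKM in dKO 1 to 4, and 29.2, 22.6, 21.5 and 30.5 RPKM in control 1 to 4. Its low value was in dKO_Flt3ITD 1, not in dKO_Flt3ITD 4, where Notch1 was low. The log2 fold change was −0.25 (95% interval −1.12 to 0.61) for dKO_Flt3ITD against control and −0.01 (−0.87 to 0.85) for dKO against control, with limma adjusted p of 0.852 and 0.999. Without dKO_Flt3ITD 1 the first of these was 0.17, so its direction too came from 1 library. Without dKO_Flt3ITD 4 the value for dKO_Flt3ITD against control was −0.42 (limma adjusted p = 0.719).

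Notch3 (chromosome 17, 32120820 to 32166852, minus strand), a receptor that Notch1 signalling induces in later thymocytes, was low and did not pass the filter. It had 0.666, 2.57, 0.474 and 0.0519 RPKM in dKO_Flt3ITD 1 to 4, 0.158, 1.74, 1.50 and 0.886 RPKM in dKO 1 to 4, and 0.0139, 0, 0.273 and 0.00872 RPKM in control 1 to 4. These rest on 628 reads in dKO_Flt3ITD, 698 reads in dKO and 59 reads in control, of which 54 were in control 3. In control 2, with 0 reads, 3 reads would be 0.0190 RPKM. In each mutant group 3 of 4 libraries were above all 4 controls. With no filter on low values the limma adjusted p was 0.444 for dKO_Flt3ITD against control and 0.475 for dKO against control.

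Rbpj (chromosome 5, 53466152 to 53657362, plus strand), the partner through which all Notch receptors act, had 10.5, 14.6, 8.42 and 10.7 RPKM in dKO_Flt3ITD 1 to 4, 2.97, 11.6, 17.2 and 18.6 RPKM in dKO 1 to 4, and 6.66, 11.8, 18.4 and 18.1 RPKM in control 1 to 4. The 3 groups overlapped, and the lowest value was in dKO 1. The log2 fold change was −0.22 (95% interval −1.31 to 0.88, limma adjusted p = 0.908) for dKO_Flt3ITD against control and −0.25 (−1.35 to 0.84, adjusted p = 0.960) for dKO against control. Without dKO 1 the value for dKO against control was 0.26, the opposite direction.

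Among the targets, Nrarp had the largest log2 fold change of RPKM + 1 of the 7 tested genes in both comparisons with control. In dKO_Flt3ITD against control that order depends on the scale: Dtx1 was larger with a pseudocount of 0.1 (2.79, against 1.80 for Nrarp) and in voom on recovered reads (4.40, against 1.42). Nrarp (chromosome 2, 25180758 to 25183339, plus strand; ENSMUSG00000078202.3) had 26.1, 24.0, 11.3 and 0.0160 RPKM in dKO_Flt3ITD 1 to 4, from 1830, 1150, 717 and 1 reads. Its values were 11.1, 10.7, 11.6 and 11.1 RPKM in dKO 1 to 4, from 420 to 845 reads, and 1.29, 1.09, 3.32 and 0.901 RPKM in control 1 to 4, from 56 to 213 reads. All 4 dKO libraries and 3 of 4 dKO_Flt3ITD libraries were above all 4 controls, and dKO_Flt3ITD 4 was below them. Over all 12 libraries the log2 fold change was 2.28 (SE 0.79, limma adjusted p = 0.279) for dKO against control and 1.94 (SE 0.79, adjusted p = 0.284) for dKO_Flt3ITD against control, so neither was called. Without dKO_Flt3ITD 4, which was set aside after its low Nrarp value was seen, both passed the threshold: the log2 fold change was 2.28 (SE 0.46, adjusted p = 0.0198) for dKO against control and 3.02 (SE 0.50, adjusted p = 0.00439) for dKO_Flt3ITD against control, in limma over the same 10690 genes. For dKO_Flt3ITD against control this leaves out the 1 library that went the other way, so it describes the other libraries and is no test of the group. For dKO against control the same 8 libraries are compared in both fits, and only the shared estimate of the spread changed. A fit of those 8 libraries alone gave adjusted p = 0.0359. Voom on the recovered reads, which weights low counts less, did not call Nrarp, with adjusted p of 0.691 and 0.764 over 12 libraries and 0.200 and 0.0514 without dKO_Flt3ITD 4, in the order dKO and dKO_Flt3ITD against control. The summed later thymocyte markers, given above and with Rag2 their largest part in dKO, were also higher in every dKO library than in every control. Their part in the Nrarp values was not tested. Exons of Nrarp overlap the antisense gene Gm38287 in GENCODE. Without strand in the counting, which is not stated, reads of both cannot be told apart. Exons of Notch1 and Notch3 overlap opposite-strand genes as well, and those of Notch2 overlap Gm42820 on the same strand.

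Hes1 (chromosome 16, 30064384 to 30067796, plus strand), the repressor that holds progenitors in the T lineage, had 92.9, 125, 64.7 and 6.87 RPKM in dKO_Flt3ITD 1 to 4, 86.4, 60.1, 54.9 and 59.0 RPKM in dKO 1 to 4, and 53.8, 62.8, 40.9 and 32.4 RPKM in control 1 to 4. The first 3 dKO_Flt3ITD libraries were above all 4 controls, and the fourth was below all of them; dKO and control overlapped. The log2 fold change was 0.08 (95% interval −1.23 to 1.39, limma adjusted p = 0.974) for dKO_Flt3ITD against control, and 0.97 (0.22 to 1.72, adjusted p = 0.195) without dKO_Flt3ITD 4. For dKO against control it was 0.47 (−0.84 to 1.78, adjusted p = 0.927).

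Dtx1 (chromosome 5, 120680202 to 120711927, minus strand) had 5.23, 8.43, 6.06 and 0.0555 RPKM in dKO_Flt3ITD 1 to 4, 6.48, 0.230, 0.00954 and 1.26 RPKM in dKO 1 to 4, and 1.40, 1.05, 0.0108 and 0 RPKM in control 1 to 4. The first 3 dKO_Flt3ITD libraries and dKO 1 were higher than all 4 controls, and the others lay within the control range. The log2 fold change was 1.61 (SE 0.73, limma adjusted p = 0.343) for dKO_Flt3ITD against control and 2.32 (SE 0.66, adjusted p = 0.0946) without dKO_Flt3ITD 4. For dKO against control it was 0.52 (SE 0.73, adjusted p = 0.933), and −0.08 without dKO 1. Dtx1 did not pass in any of these.

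Hey1 (chromosome 3, 8663359 to 8667256, minus strand) had 0 reads in all 4 controls, where 3 reads would be 0.0471 to 0.0683 RPKM by library. It had 66, 57, 1 and 4 reads in dKO_Flt3ITD 1 to 4, which are 1.10, 1.39, 0.0184 and 0.0747 RPKM. In dKO 1 to 4 it had 2, 0, 1 and 209 reads, or 5.09 RPKM in dKO 4 and at most 0.0543 RPKM in the others. Every dKO_Flt3ITD library thus had more reads than any control, but 1 and 4 reads are within counting error of very low levels. With no filter on low values its limma adjusted p was 0.679 for dKO_Flt3ITD against control and 0.820 for dKO against control.

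Myc (chromosome 15, 61985391 to 61990374, plus strand) had 34.1, 51.3, 100.2 and 126 RPKM in dKO_Flt3ITD 1 to 4, 75.1, 81.2, 35.3 and 57.3 RPKM in dKO 1 to 4, and 69.0, 158, 92.0 and 134 RPKM in control 1 to 4. It was the target whose mean was lower in both mutant groups, with overlap between the groups. The log2 fold change was −0.64 (95% interval −1.54 to 0.25, limma adjusted p = 0.550) for dKO_Flt3ITD against control and −0.85 (−1.75 to 0.05, adjusted p = 0.595) for dKO against control, so Myc did not pass. Without dKO_Flt3ITD 4 the first of these was −0.93 (−1.84 to −0.02, limma adjusted p = 0.310), which did not pass either. Mycn, the related gene, had 41.4 to 102 RPKM in dKO_Flt3ITD, 29.3 to 128 RPKM in dKO and 25.9 to 76.8 RPKM in control, so the 2 genes were at levels of the same order.

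Counted over the 7 tested genes, limma called 0 of 7 in dKO_Flt3ITD against control, where it called 160 of all 10690 genes (1.50%). It called 0 of 7 in dKO against control, where it called 109 of all genes (1.02%). Of the 7, 2 and 1 had an unadjusted p under 0.05 in those comparisons, in that order, against 13.4% and 9.18% of all genes. Without dKO_Flt3ITD 4 it called 1 of 7, Nrarp, in each, against 1.75% and 1.40% of all genes. Voom called 0 of 7 in each, against 0.253% and 0.0468% of all genes. Groups did not overlap for 1 of 7 in dKO against control, Nrarp, against 6.30% of all genes, and for 0 of 7 in dKO_Flt3ITD against control, against 7.67%. The median log2 fold change of the 7 was −0.22 in dKO_Flt3ITD against control, and 0.06 without dKO_Flt3ITD 4, so its sign came from that library. In dKO against control it was −0.01, beside medians of 0.00 and 0.01 for all genes tested in the 2 comparisons. Both comparisons use the same 4 controls.

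In dKO_Flt3ITD against dKO, the comparison for the Flt3 allele on the double mutant background, limma called 0 of the 7 and 0 of 10690 genes (0.00%), while 824 had an unadjusted p under 0.05; the count by voom was 0, and without dKO_Flt3ITD 4 limma called 0.00935% of all genes. The smallest p of the 7 was that of Dtx1, with a log2 fold change of 1.10 (SE 0.73, adjusted p = 0.779), and 1.80 (SE 0.66, adjusted p = 0.433) without dKO_Flt3ITD 4. Nrarp had −0.34 (SE 0.79), and 0.74 (SE 0.50) without that library. Hes1 had −0.39 (−1.70 to 0.92), and 0.50 (−0.25 to 1.25) without it. Notch1 had −0.71 with all libraries and 0.13 without it, so the direction of these 3 genes came from 1 library. Myc changed direction too, from 0.21 (SE 0.42) to −0.08 (SE 0.43) without dKO_Flt3ITD 4. Groups overlapped for all 7 genes, while 4.28% of all genes had no overlap.

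**Figure D3:**
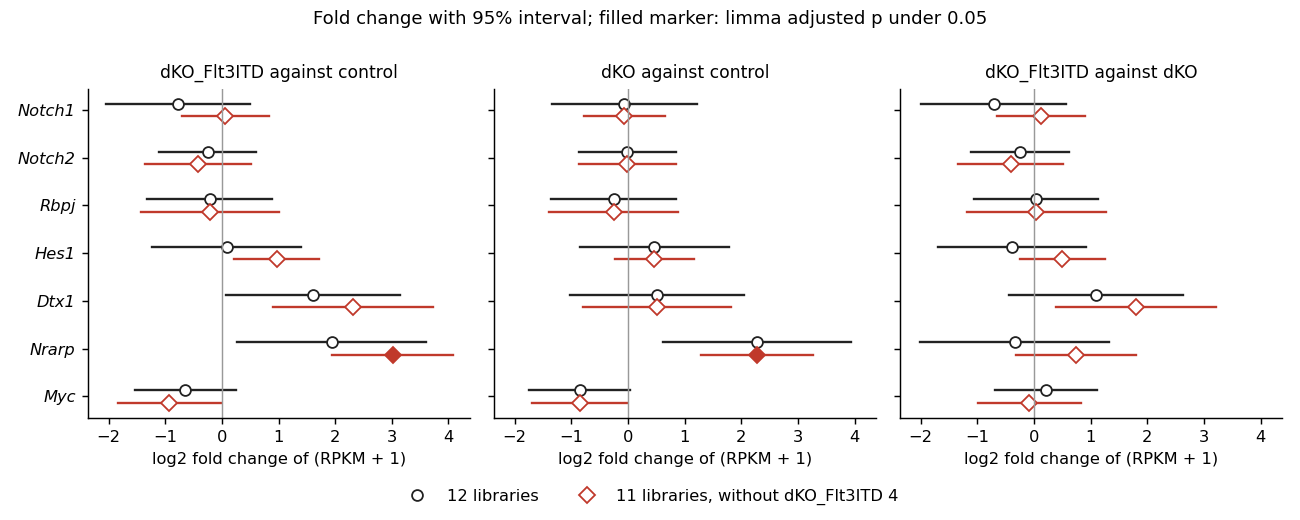
Log2 fold change of RPKM + 1 with its 95% interval for the 7 tested genes in each comparison, from all 12 libraries (circles) and without dKO_Flt3ITD 4 (diamonds). A filled marker is a limma adjusted p under 0.05, reached by Nrarp alone, at 3.02 and 2.28 against control without dKO_Flt3ITD 4.

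How the genes varied together was described over the 12 libraries on log2(RPKM + 1), with no test, since libraries share groups and, in part, depth. Hes1 and Nrarp had a Pearson r of 0.78, and 0.74 without dKO_Flt3ITD 4. Hes1 and Dtx1 had 0.67, and 0.85 without it. Notch1 and Hes1 had 0.83, but −0.02 without it, so that likeness came from 1 library. Nrarp and Myc ran opposite, with r of −0.77, and −0.74 without it. In naming the genes most alike, predicted genes, pseudogenes and unnamed clones were skipped. The other tested genes most like Nrarp were Phf11c (r of 0.94) and Xaf1 (0.94), and 64 of all tested genes reached 0.8 with Nrarp. Those most like Hes1 were Tmem108 (0.89) and Znrd1 (0.86), and those most like Notch1 were Pde3b (0.92) and Dzip1 (0.89), which had r of 0.73, 0.60, 0.74 and 0.59 in that order without dKO_Flt3ITD 4.

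The pathway around these genes was read from lists chosen with earlier results of these data known. Among ligands, 2 of 6 were in the table and only Jag1 was tested. Jag1 (chromosome 2, 137081456 to 137116644, minus strand), a membrane ligand of Notch receptors, had 1.89, 9.28, 2.87 and 3.47 RPKM in dKO_Flt3ITD 1 to 4, 27.1, 9.92, 7.02 and 5.24 RPKM in dKO 1 to 4, and 1.69, 0.493, 0.0219 and 0.0189 RPKM in control 1 to 4. All 8 mutant libraries were above all 4 controls. Jag1 rose in dKO against control, where 0.786% of all genes rose, with a log2 fold change of 2.96 (SE 0.59, limma adjusted p = 0.0171), and had 1.74 (SE 0.59, adjusted p = 0.184) in dKO_Flt3ITD against control, which did not pass. The call was lost without control 3, control 4 or dKO 1, with log2 fold changes of 2.80, 2.80 and 2.52 and adjusted p of 0.0605, 0.0589 and 0.0591. It was also lost with no filter on low values (2.96, adjusted p = 0.0504), in voom (6.05, adjusted p = 0.196) and in voom without dKO_Flt3ITD 4 (6.05, adjusted p = 0.167), so the fold was not smaller in these. The summed later thymocyte markers did not overlap between dKO and control either, and their part in the Jag1 values was not tested. The difference between the mutant groups was −1.23 (95% interval −2.46 to 0.01, adjusted p = 0.652). Dll4, the thymic ligand of stromal cells, had 0 RPKM in all 4 controls and at most 2.66 RPKM in any library.

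None of the receptor-processing genes was called, with 14 of 15 tested. Over all genes limma called 1.50% in dKO_Flt3ITD against control, 1.02% in dKO against control and 0.00% in dKO_Flt3ITD against dKO. Beside these shares 0 calls do not set the list apart. A positive log2 fold change was seen for 7 of 14 in dKO_Flt3ITD against control and 9 of 14 in dKO against control. The medians were −0.06 and 0.17, beside 0.00 and 0.01 for all genes tested. Mfng, a glycosyltransferase that modifies receptors, was at 24.5 to 46.4 RPKM in dKO_Flt3ITD, 20.1 to 56.0 RPKM in dKO and 29.2 to 56.5 RPKM in control. Its sister genes Lfng and Rfng were at most 2.55 and 6.19 RPKM in any library. The smallest p among processing genes was that of Aph1a, a γ-secretase subunit, in dKO_Flt3ITD against control (log2 fold change 0.78, adjusted p = 0.553), and that of Adam10, the protease of the first activating cut, in dKO against control (0.44, adjusted p = 0.778). In dKO_Flt3ITD against dKO it was that of Psen2, another γ-secretase subunit (0.82, adjusted p = 0.813).

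Of 18 Rbpj coactivators and corepressors 17 were tested and 0 called in each comparison. The medians were −0.13 in dKO_Flt3ITD against control and −0.06 in dKO against control, beside 0.00 and 0.01 for all genes tested. For this list and for the turnover and Myc network lists below, the all-gene shares called were 1.50%, 1.02% and 0.00%. These are for dKO_Flt3ITD against control, dKO against control and dKO_Flt3ITD against dKO. Beside them 0 calls do not set the lists apart. Maml2, a Mastermind coactivator, averaged 15.5 ± 11.6 RPKM in dKO and 5.31 ± 1.67 RPKM in control (SD, n = 4 each), without overlap (log2 fold change 1.22, adjusted p = 0.455). Tle3, a Groucho corepressor, had the smallest p in dKO_Flt3ITD against control (−0.81, adjusted p = 0.487), and Ctbp1, a corepressor, in dKO_Flt3ITD against dKO (0.93, adjusted p = 0.643). Of 10 turnover genes 8 were tested and 0 called. Dtx2, a Deltex relative of Dtx1, was at 0.0589 to 0.492 RPKM in dKO and 0.443 to 3.39 RPKM in control (log2 fold change −1.19, adjusted p = 0.471), and at 0.431 to 4.88 RPKM in dKO_Flt3ITD (1.05 against dKO, adjusted p = 0.673). Dtx3l, another relative, had the smallest p in dKO_Flt3ITD against control (0.39, adjusted p = 0.660). The 10 tested genes of the Myc network had 0 calls, with smallest p for Mxd4 in dKO_Flt3ITD against control (−1.22, adjusted p = 0.508), Mlx in dKO against control (0.95, adjusted p = 0.651) and Mxd3 in dKO_Flt3ITD against dKO (−1.59, adjusted p = 0.686).

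Of 12 further genes that respond to Notch, T-lineage genes and others, 7 were tested. In each comparison with control, 5 of the 7 had a positive log2 fold change and 2 a negative one. The median of the 7 was 0.43 in dKO_Flt3ITD against control and 0.59 in dKO against control, beside 0.00 and 0.01 for all genes tested. Limma called 0.505% of all genes lower in dKO_Flt3ITD against control and 0.234% in dKO against control. It called 0.992% and 0.786% higher, in the same order. In each comparison with control limma called 1 of the 7 lower and 0 higher. The one that fell was Tcf7, which encodes a transcription factor that Notch1 induces in early progenitors. It had 0, 0.120, 0.814 and 0 RPKM in dKO_Flt3ITD 1 to 4, 0.0535, 0.0293, 0 and 0.0240 RPKM in dKO 1 to 4, and 8.39, 42.4, 25.2 and 4.08 RPKM in control 1 to 4. All 8 mutant libraries were below all 4 controls, among them dKO_Flt3ITD 4, where Nrarp was at 1 read. Its log2 fold change was −3.68 (SE 0.59, limma adjusted p = 0.00283) for dKO_Flt3ITD against control and −3.89 (SE 0.59, adjusted p = 0.00232) for dKO against control, and voom did not call it, with larger log2 fold changes of −8.08 and −8.88 and adjusted p of 0.129 and 0.199. Gata3, on the same list, was at 7.10 to 53.0 RPKM in dKO_Flt3ITD, 18.4 to 39.1 RPKM in dKO and 15.5 to 30.3 RPKM in control and did not pass, with adjusted p of 0.895 and 0.964. Il2ra, a receptor chain of the next thymocyte stage, had the smallest p of the list in dKO_Flt3ITD against dKO (log2 fold change −1.22, adjusted p = 0.815).

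**Figure D4:**
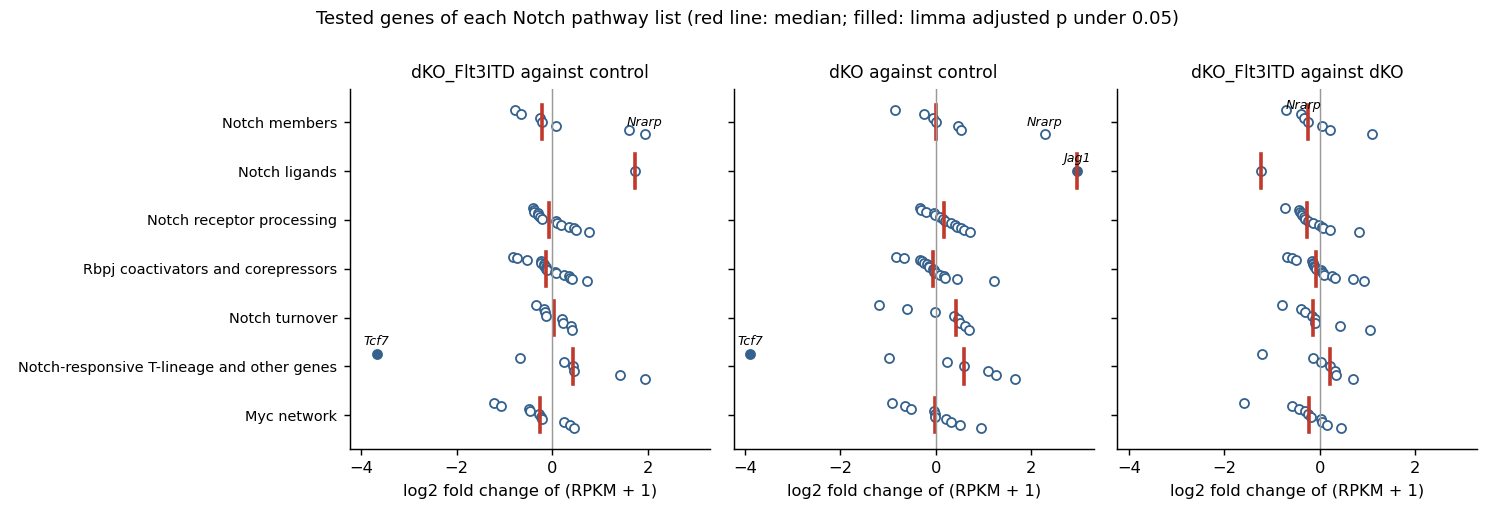
Log2 fold change of RPKM + 1 for each tested gene of the Notch set and of 6 related lists (points), with the list's median (red line), in each comparison. Filled points are limma adjusted p under 0.05 and are named: Jag1 at 2.96 and Tcf7 at −3.89 in dKO against control, and Tcf7 at −3.68 in dKO_Flt3ITD against control; Nrarp is named without being called.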

How the data were processed

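Messenger RNA of 12 libraries of 100 sorted cells was made into full-length libraries, per the labels' protocols. Tools listed in the submitters' processing notes, without their roles, are HTSeq 0.5.4p5, TopHat2 2.0.10 and SAMtools 0.1.19, with mm10 as the build. The authors deposited RPKM for 13016 genes; which total they divided by, how genes were chosen and whether strand was used is not stated there or in the labels. Groups and replicate numbers came from titles and columns from sample descriptions.

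Steps between low RPKM values gave whole reads, within 0.001, for 100% of genes. The smallest whole counts that fitted were taken. A gene with reads in 1 library passes by construction, so the 100% is partly fixed in advance. For genes read in few libraries the counts are known only up to a common factor. The floor of 3 reads covers counting error only, since amplified reads are not independent molecules. Log2(RPKM + 1), which understates changes of low genes, was fitted with limma 3.58.1 in R 4.3.3 with an intensity trend, 12 libraries in 1 fit. Intervals are 95%. In a simulation of dKO against control with 10690 genes, 6.93% of calls were false. The share recovered was 4.48%, 50.7% and 86.4% for genes changed by 1, 2 and 3 log2 units. Changes were placed only in genes above a control level that Nrarp, Dtx1 and Jag1 did not reach. Noise was normal, with no outlying library, so the shares do not hold for those genes.

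Every gene of the set was named; from each related list, called genes and otherwise the smallest p; and for 3 tested genes the 2 most alike. The genes and lists were chosen with earlier results of these data known. Alternatives were other pseudocounts, filters and scalings, no trend, 8 libraries, a replicate block, voom on recovered reads and leaving out each library; voom without dKO_Flt3ITD 4 was chosen after seeing the data. Positions are GENCODE mouse release 21 (GRCm38), and promoters RefSeq. Python 3.11.15, pandas 2.3.3 and matplotlib 3.10.9 were used.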

Additional observations from a re-analysis of the deposited data

Results flagged for a closer look

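In a group of 4 libraries a value was set apart when its gap to the next exceeded Dixon's critical share of the group's range on log2(RPKM + 1); chance does this in about 1 group in 20, and 4 of 69 groups examined did. Notch2 was highest in dKO 1, at 0.893 of the range. Notch3 was highest in control 3, at 0.943, with 54 of the 59 control reads. Hey1 was highest in dKO 4, at 0.971, with 209 of the 212 dKO reads. Ctbp1 was lowest in dKO_Flt3ITD 4, at 0.913.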

How the results depend on the processing

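Of 913 values of 40 gene results under 23 alternatives, 867 kept their direction and their side of the threshold, 10 lost a call, 3 gained one and 33 changed direction. The 3 gained calls were all of Nrarp. All changes of direction were of genes that were not called. Outside the fits without 1 library, they were Hes1 in dKO_Flt3ITD against control when rescaled to the same sum (−0.18), and in dKO_Flt3ITD against dKO Rbpj with pseudocount 5 (−0.029), rescaled to the same sum (−0.086) and in voom (−0.0077), and Nrarp with pseudocount 5 (0.031). In voom without dKO_Flt3ITD 4 the same comparison gave Notch1 0.071, Rbpj −0.065, Hes1 0.43, Nrarp 0.72 and Myc −0.11. Without 1 library the ranges in dKO against control were −0.17 to 0.084 for Notch1, −0.12 to 0.073 for Notch2, −0.54 to 0.26 for Rbpj and −0.084 to 0.88 for Dtx1. In dKO_Flt3ITD against control they were −1.18 to 0.064 for Notch1, −0.44 to 0.17 for Notch2 and −0.37 to 0.97 for Hes1. In dKO_Flt3ITD against dKO they were −1.11 to 0.13 for Notch1, −0.43 to 0.17 for Notch2, −0.48 to 0.29 for Rbpj, −0.83 to 0.50 for Hes1, −0.84 to 0.74 for Nrarp and −0.080 to 0.54 for Myc.

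The number of genes of the set called went to 1, Nrarp, in dKO against control with only the 8 libraries compared, and without 1 library ran from 0 to 1 in each comparison with control and was 0 in dKO_Flt3ITD against dKO. Over all genes, dKO against control gave 109 calls, 64 with no filter, 5 in voom, 30 in voom without dKO_Flt3ITD 4 and 58 to 150 without 1 library. The comparison of dKO_Flt3ITD with control gave 160, and 91, 27, 102 and 94 to 187 in the same order. The comparison of dKO_Flt3ITD with dKO gave 0, and 3 with pseudocount 5, 1 with no filter, 1 with at least 5 RPKM in 4 libraries, 2 rescaled to the same sum, 1 rescaled to the median ratio, 1 with only the 8 libraries compared and 0 to 6 without 1 library. The cause of these moves was not tested.

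The labels do not say whether replicate numbers pair the libraries. Same-numbered libraries of 2 groups deviated together with r from −0.15 to 0.13, and differently numbered ones with r from −0.17 to 0.20. Such values cannot exclude shared litters or days. With the replicate block 85, 116 and 0 genes were called, in the order dKO against control, dKO_Flt3ITD against control and dKO_Flt3ITD against dKO, and 0 genes of the Notch set. Few reads lie behind Hey1 and Notch3 in several libraries and behind Nrarp in dKO_Flt3ITD 4. For Nrarp, dKO_Flt3ITD 4 had 1 read of 22480423, and dKO 2 had 420 of 13623436. The part of depth in these low counts was not tested.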
